A study of Mus musculus with 21 samples.

Results

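The genes described here encode the non-collagen glycoproteins of the extracellular matrix and the proteins that fold, process and crosslink collagen. The set is a list of 41 genes given by name, out of 19937 genes measured by a probe set of 1 gene. It comprises 12 matricellular and adhesive glycoproteins, 8 elastic fibre and microfibril proteins, 4 lysyl oxidases, 7 collagen-maturation proteins, 6 proteoglycans and 4 basement membrane proteins. For each gene, the probe set annotated to that gene alone was used, and where there were several, the one brightest on average. This gave values for 39 members. The probe set of Loxl2 is shared with another gene and was not used, and Fbn1 is not analysed here. Of the 39, 36 reached a log2 value of 5 on at least 3 of the 21 arrays and entered the tests with 11384 genes in all. Tnc, Cthrc1 and Lox did not reach that level on 3 arrays, so they have values on every array but no test in the main fit.

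Matrix glycoproteins bind collagen, growth factors and integrins, and cells lay down many of them when a tissue is remodelled. Collagen is hydroxylated and folded with the help of chaperones inside the cell, trimmed of its propeptides outside it and then joined into stiff fibrils by lysyl oxidases. In the heart most of these genes are expressed by fibroblasts, and several of them, such as Postn and Tnc, are low in the healthy adult ventricle and known for their induction after injury.

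RNA came from the left ventricle of mice aged 9 to 13 weeks, taken 4 days after the last injection, and each sample was hybridised to 1 Affymetrix array. The groups were Tg(αMHC-MerCreMer) mice after 4 tamoxifen or 4 control injections, the same line after 1 tamoxifen or 1 control injection, and wild-type mice after 4 tamoxifen or 4 control injections. Every group held 3 arrays except the wild-type control group, which held 6. Tamoxifen was given at 40 mg/kg. The transgene places a tamoxifen-activated Cre recombinase under the α-myosin heavy chain promoter, which is active in cardiomyocytes, and the control-injected MerCreMer mice carry it too. Replicate 1 was male and replicates 2 and 3 female in each group of 3, and the wild-type controls were 3 males and 3 females. The sources used here give neither the strain background nor what the control injection contained.

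Promoter windows are shown for the members on which the tests turned, Serpinh1 and Ogn, and for Postn, which had the largest fitted change among the tested members. The windows, from RefSeq on build GRCm38.p6, run from 250 bases before the gene's start to 50 after it, 5′ to 3′ on the gene's strand. Serpinh1 lies on the minus strand at chr7:99353190-99353489, Ogn on the plus strand at chr13:49607765-49608064, and Postn on the plus strand at chr3:54360857-54361156, the second of 2 starts listed. Capitals mark matches to the motifs searched, which are described after the sequences.
Serpinh1: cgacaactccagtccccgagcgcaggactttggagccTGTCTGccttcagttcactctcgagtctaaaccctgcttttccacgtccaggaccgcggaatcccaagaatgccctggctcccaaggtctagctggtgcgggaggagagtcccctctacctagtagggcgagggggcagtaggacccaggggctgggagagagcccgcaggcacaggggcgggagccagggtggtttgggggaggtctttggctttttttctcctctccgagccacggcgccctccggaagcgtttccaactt
Ogn: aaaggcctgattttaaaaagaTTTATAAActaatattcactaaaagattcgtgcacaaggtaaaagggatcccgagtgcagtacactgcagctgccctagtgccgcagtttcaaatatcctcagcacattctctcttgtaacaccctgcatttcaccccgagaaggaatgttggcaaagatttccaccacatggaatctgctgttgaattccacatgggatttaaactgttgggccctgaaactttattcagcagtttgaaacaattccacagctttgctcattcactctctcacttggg
Postn: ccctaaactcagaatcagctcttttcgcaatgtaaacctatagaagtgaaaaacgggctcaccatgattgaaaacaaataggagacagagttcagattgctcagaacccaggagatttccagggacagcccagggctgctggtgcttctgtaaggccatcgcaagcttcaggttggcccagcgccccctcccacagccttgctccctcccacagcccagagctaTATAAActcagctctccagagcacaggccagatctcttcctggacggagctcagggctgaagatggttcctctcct
The motifs were TATAAA, the core of the TATA box, CAGACA, which holds a SMAD-binding core, and GAANNTTC, a pair of heat shock element units, each searched on both strands. With the start as the first downstream base, Postn held TATAAA at -26 to -21. Ogn held TATAAA at -227 to -222 and, overlapping it on the other strand, at -229 to -224. Serpinh1 held CAGACA on the other strand at -213 to -208, and GAANNTTC did not match in these 3 windows. In all, 28 of the 41 members had a window, 33 windows together. TATAAA occurred in 8 of the 33 and in 13.6% of all 32851 windows, CAGACA in 12 of the 33 and in 21% of all, and GAANNTTC in 2 of the 33, those of Fstl1 and Plod1, and in 7.86% of all.

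One group varied more than the others, and 1 of its arrays lay far from the rest for many members. The MerCreMer 4 tamoxifen arrays correlated with each other at 0.9182 to 0.9742, whereas the pairs of the other groups lay between 0.9824 and 0.995. Measured against the mean of the MerCreMer 4 control arrays, the 39 members had a median difference of 0.07, 0.02 and 0.86 log2 units on MerCreMer 4 tamoxifen replicates 1, 2 and 3, against 0.06, 0.01 and -0.01 for all genes tested. The test therefore weighted each group by its own variance, and this group received a weight of 0.19, against 1.08 to 1.73 for the others. The tested members' changes between MerCreMer 4 tamoxifen and 4 control were also fitted without replicate 3. Those that moved by more than 1.5 times are given without it too. Tnc, Cthrc1 and Lox, which are outside the tests, were not fitted without it. Levels are log2 values, and because probe sets differ in brightness, levels of different genes are not compared.

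**Figure D1:**
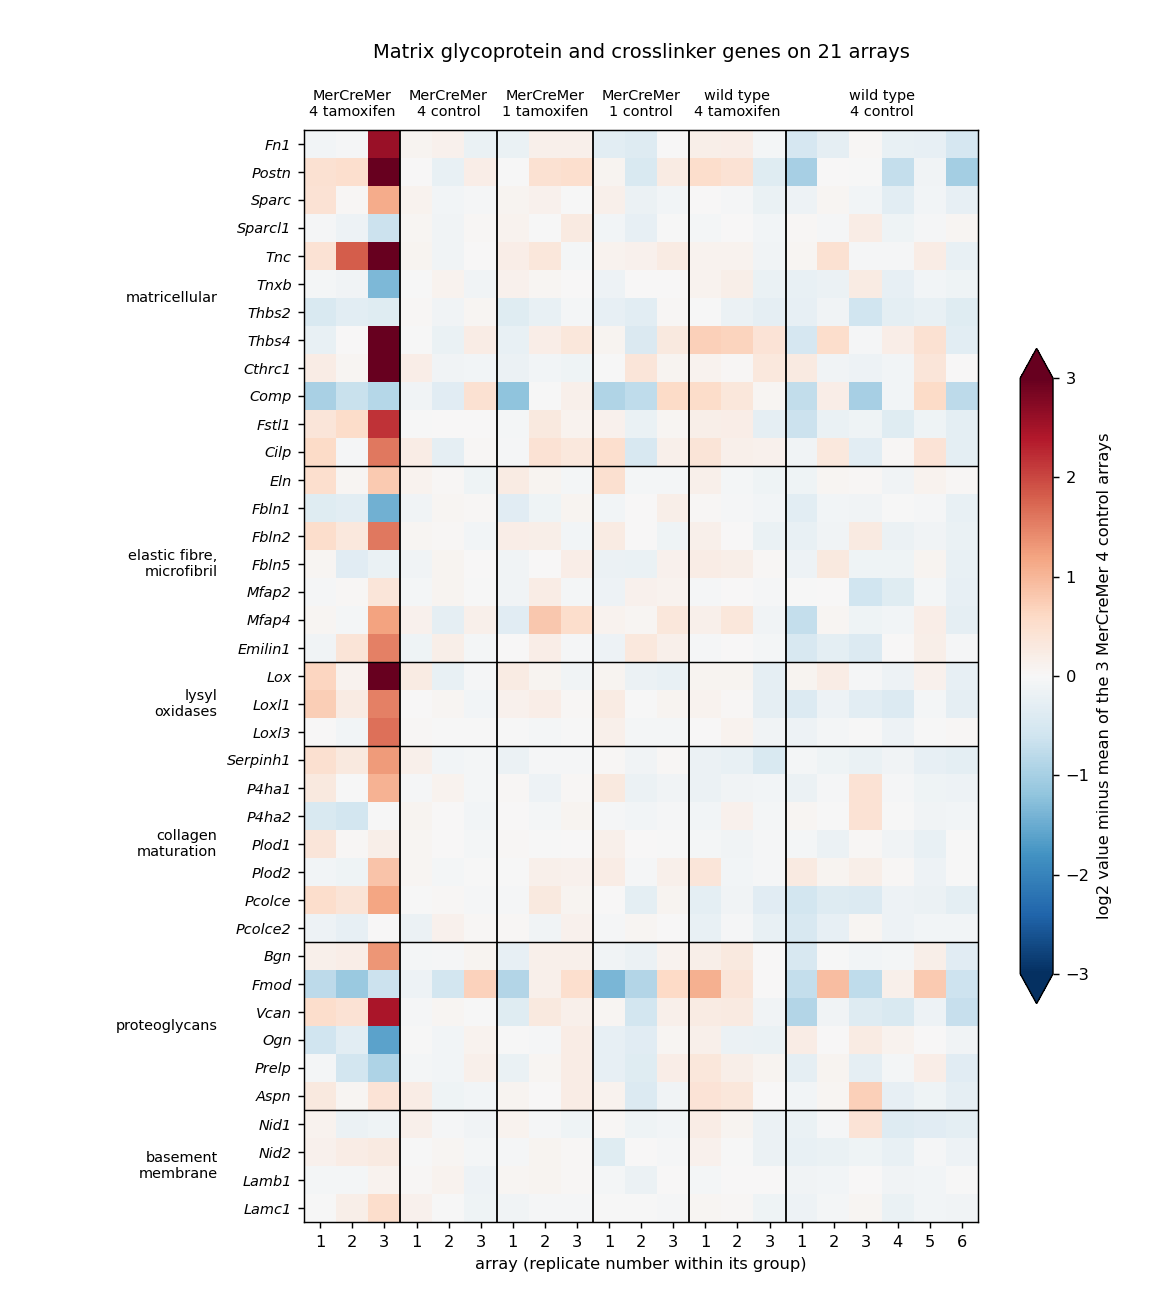
Log2 values of the 39 measured members (rows, by role) on the 21 arrays (columns, by group), each minus the gene's mean over the 3 MerCreMer 4 control arrays, with the colour scale ending at 3 log2 units in both directions. The column of MerCreMer 4 tamoxifen replicate 3 holds nearly all of the strong colours, with the median member 0.86 above the control mean there and 0.07 and 0.02 on replicates 1 and 2.

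The first comparison set MerCreMer ventricles after 4 tamoxifen injections against those after 4 control injections. One of the 36 tested members passed the test, Serpinh1, which rose. Of all genes tested, 5.6% were called at an adjusted p under 0.05 in limma with Benjamini-Hochberg adjustment. The median change of the tested members was 0.24 log2 units, with 23 of 36 above 0, against a median of 0.014 and 52.5% above 0 for all genes tested. Without replicate 3 the members' median was 0.03. With equal weights for all groups, which ignores the wider spread of the tamoxifen group, 8 members were called higher and 3 lower, where 13.9% and 9.41% of all genes tested were called. These were Eln, Fbln2, Fstl1, Loxl1, Pcolce, Serpinh1, Sparc and Vcan upwards and Fbln1, Ogn and Thbs2 downwards. Members beyond Serpinh1, Ogn and the fixed panel of genes are named here after their values were seen.

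The members were also sorted by where their arrays lay. In 9 tested members all 3 tamoxifen arrays lay above all 3 control arrays, as they did for 16.6% of all genes tested: Bgn, Fbln2, Fstl1, Loxl1, Nid2, Pcolce, Postn, Serpinh1 and Vcan. In 5 they lay below all 3, as for 11.3% of genes: Comp, Fbln1, Fmod, Ogn and Thbs2. In 6 members, Fn1, Thbs4, Mfap2, Mfap4, Loxl3 and Plod2, only replicate 3 lay above the control range, which held for 9.02% of genes. Counted by size, 0 of 36 members lay at least 1 log2 unit above the control mean on replicate 1 (1.51% of genes did) and 0 on replicate 2 (0.659%). On replicate 3, 16 did (44.4%, against 5.09% of genes). Those 16 were Fn1, Postn, Sparc, Thbs4, Fstl1, Cilp, Fbln2, Mfap4, Emilin1, Loxl1, Loxl3, Serpinh1, P4ha1, Pcolce, Bgn and Vcan. Outside the tested members, Tnc lay 1.81 above the control mean on replicate 2. On replicate 3, Tnc, Cthrc1 and Lox lay 6.3, 3.39 and 4.9 above it. In the other direction, 0 members lay at least 1 log2 unit below the control mean on replicate 1 (0.922% of genes), 1 on replicate 2, Fmod (0.562%), and 3 on replicate 3, Tnxb, Fbln1 and Ogn (4.96%).

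The collagen-maturation genes held the called member. Serpinh1, the collagen chaperone of the endoplasmic reticulum, had log2 levels of 7.47, 7.29 and 8.27 after 4 tamoxifen injections, against 7.15, 6.91 and 6.93 after 4 control injections. All 3 tamoxifen arrays lay above the highest of the other 18 arrays, which ran from 6.55 to 7.15. The means were 7.68 ± 0.523 in the tamoxifen group and 7.0 ± 0.135 in the control group (SD, n = 3 each), a change of 0.68 log2 units (SE 0.187, limma adjusted p = 0.0389). The change was 0.37 without replicate 3 (adjusted p = 0.106), and over all alternatives it ran from 0.369 to 0.864, with adjusted p from 0.00744 to 0.227. The call was also lost without MerCreMer 4 tamoxifen replicate 1 (adjusted p = 0.0833) or 2 (0.0901), and without MerCreMer 4 control replicate 2 (0.0593) or 3 (0.0775). Among other settings it was lost with only the arrays compared in the fit (0.227), in female arrays alone (0.16) or after a second quantile normalisation (0.0541).

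Pcolce, which enhances the removal of the C-propeptide of procollagen, lay at 8.93, 8.79 and 9.58 after tamoxifen and at 8.39, 8.43 and 8.36 after control injections. All 3 tamoxifen arrays were also above the 7.84 to 8.68 of the other 18 arrays, and the change of 0.70 (SE 0.210, limma adjusted p = 0.0547) did not pass the test. P4ha1, a catalytic subunit of prolyl 4-hydroxylase, had 7.90, 7.61 and 8.66, against 7.58, 7.72 and 7.55 in controls. Its isoenzyme subunit P4ha2 had 6.85, 6.74 and 7.28, against 7.37, 7.30 and 7.22. Thus replicates 1 and 2 of P4ha2 lay below every one of the other 18 arrays, whose lowest value was 7.18, while replicate 3 did not. Without replicate 3 the Pcolce change was 0.48. That of P4ha1 was 0.44 (SE 0.272) and 0.12 without it, and that of P4ha2 -0.34 (SE 0.213) and -0.52 without it. The lysyl hydroxylases Plod1 and Plod2 had changes of 0.19 (SE 0.125) and 0.21 (SE 0.226), the second being -0.14 without replicate 3, and Pcolce2, a relative of Pcolce, had -0.13 (SE 0.207), none of them called.

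The lysyl oxidases oxidise lysines of collagen and elastin, the first step of crosslinking. Lox, the founding enzyme of the family, read 4.71, 4.16 and 8.96 after 4 tamoxifen injections, against 4.31, 3.84 and 4.02 after 4 control injections. Only replicate 3 lay above the level of 5, and the other 18 arrays lay between 3.79 and 4.31. In a fit without the filter on low values the change of Lox was 1.88 (SE 0.587, limma adjusted p = 0.0827). Lox lay 0.65, 0.1 and 4.9 log2 units above the control mean on replicates 1, 2 and 3. Loxl1, which acts on elastic fibres, lay at 8.12, 7.61 and 8.89 after tamoxifen, against 7.38, 7.44 and 7.29. Its groups did not overlap, and the change was 0.84 (SE 0.244, limma adjusted p = 0.0509), or 0.48 without replicate 3. Loxl3 had 5.50, 5.41 and 7.13, against 5.51, 5.47 and 5.47, so that replicates 1 and 2 did not exceed the highest control and replicate 3 alone lay far above it. Its change was 0.53 (SE 0.244) and -0.03 without replicate 3.

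The matricellular genes held members that differed widely between the tamoxifen arrays. Tnc, which encodes the de-adhesive glycoprotein tenascin-C, read 4.33, 5.70 and 10.18 after 4 tamoxifen injections, against 3.96, 3.79 and 3.91 after 4 control injections. Replicate 2 stood above the 3.66 to 4.34 of the other 18 arrays, replicate 1 within it, and replicate 3 far above both. The fit without the filter gave Tnc a change of 2.85 (SE 0.679, limma adjusted p = 0.0204). Since Tnc is under the level of 5 in every other group, this change is measured from near background. Tnc lay 0.44, 1.81 and 6.3 log2 units above the control mean on replicates 1, 2 and 3. The change thus rests mainly on replicate 3, and it was not fitted without that array. Tnc is not counted as called in the main fit, because it reached 5 on only 2 arrays and was not tested there.

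Postn, which encodes periostin, a collagen- and integrin-binding protein of activated fibroblasts, read 7.59, 7.65 and 11.14 after tamoxifen, against 7.16, 6.93 and 7.34 in controls. The groups did not overlap, but replicates 1 and 2 were within the 6.13 to 7.67 of the other 18 arrays. Its change was 1.65 (SE 0.707, limma adjusted p = 0.198), and 0.45 without replicate 3. Fn1, fibronectin, which forms the fibrils to which integrins attach, read 7.68, 7.73 and 10.34, against 7.84, 7.89 and 7.55. Replicates 1 and 2 lay inside the control range, and the change of 0.82 (SE 0.411, limma adjusted p = 0.285) became -0.05 without replicate 3. Thbs4, a thrombospondin of stressed heart and tendon, read 5.31, 5.55 and 8.64, against 5.51, 5.33 and 5.74. Only replicate 3 lay above the control range, and replicate 1 lay just below it. The Thbs4 change was 0.97 (SE 0.590, limma adjusted p = 0.402), and -0.09 without replicate 3.

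Fstl1, a secreted glycoprotein of the SPARC family, was higher on all 3 tamoxifen arrays, with 8.53, 8.71 and 10.34 against 8.15, 8.19 and 8.17. Each of the 3 also exceeded the highest of the other 18 arrays, 8.46. The change of 1.02 (SE 0.342, limma adjusted p = 0.0892) was not called, and it was 0.45 without replicate 3. Sparc, a collagen-binding glycoprotein that assists fibril assembly, read 10.63, 10.23 and 11.29, against 10.30, 10.10 and 10.16. Replicate 2 overlapped the controls, and the change was 0.53 (SE 0.190, limma adjusted p = 0.114), or 0.22 without replicate 3. Its relative Sparcl1 had 10.37, 10.25 and 9.75, against 10.47, 10.29 and 10.45, the opposite order on replicate 3, and a change of -0.28 (SE 0.176), or -0.11 without that array.

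Among further matricellular genes, Thbs2 and Tnxb had lower means after tamoxifen, and Cthrc1 and Cilp had higher ones. None of those tested was called. Thbs2, a thrombospondin that limits angiogenesis, read 6.96, 7.09 and 7.05, against 7.44, 7.31 and 7.47. The tamoxifen arrays lay close together below all 3 controls, but within the 6.80 to 7.47 of the other 18 arrays. Its change was -0.37 (SE 0.229, limma adjusted p = 0.41) with group weights and the same size with equal weights, where adjusted p was 0.0319, and over all alternatives adjusted p ran from 0.0319 to 0.73. Tnxb, tenascin-X, which binds collagen fibrils in loose connective tissue, had 7.79, 7.74 and 6.50, against 7.85, 7.97 and 7.75, a low value on replicate 3 beside near-control values on the others. Its change was -0.52 (SE 0.264), and -0.11 without replicate 3. Cthrc1, a secreted protein of collagen-producing fibroblasts, read 4.16, 3.99 and 7.33, against 4.13, 3.83 and 3.86, and reached 5 on replicate 3 alone. In the fit without the filter its change was 1.22 (SE 0.446, limma adjusted p = 0.151). Cilp, a matrix protein of cartilage and of cardiac fibroblasts, had 6.22, 5.63 and 7.24, against 5.89, 5.38 and 5.70, a change of 0.71 (SE 0.450) that was 0.25 without replicate 3.

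The elastic fibre genes did not move in 1 direction. Eln, elastin itself, read 6.63, 6.19 and 6.91 after tamoxifen, against 6.23, 6.16 and 6.01 in controls, with replicate 2 inside the control range. Its change was 0.45 (SE 0.203, limma adjusted p = 0.227), or 0.25 without replicate 3. Fbln2, a fibulin that links fibronectin, elastin and basement membranes, lay higher at 8.84, 8.64 and 9.91, against 8.37, 8.36 and 8.23. Fbln1, a fibulin of the same family, lay lower at 8.35, 8.40 and 7.27, against 8.61, 8.78 and 8.76. Neither pair of groups overlapped. The change was 0.81 (SE 0.254, limma adjusted p = 0.0677) for Fbln2 and -0.71 (SE 0.224, limma adjusted p = 0.0694) for Fbln1. Without replicate 3 the changes were 0.39 and -0.33. Fbln5, needed for elastic fibre assembly, had -0.16 (SE 0.240). The microfibril proteins Mfap2 and Mfap4 had 0.12 (SE 0.251) and 0.41 (SE 0.464), and Emilin1, at the interface of elastin and microfibrils, had 0.59 (SE 0.259). None of these 4 was called. Without replicate 3 the changes were 0.02 for Mfap2, 0.04 for Mfap4 and 0.18 for Emilin1.

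Among the proteoglycans, Ogn stood lower and Vcan and Bgn higher. Ogn, osteoglycin, a small leucine-rich proteoglycan of collagen fibrils, read 7.15, 7.43 and 6.14 after 4 tamoxifen injections, against 7.74, 7.67 and 7.86 after 4 control injections. Replicates 1 and 3 lay below all of the other 18 arrays, whose lowest value was 7.42. The means were 6.91 ± 0.680 after tamoxifen and 7.76 ± 0.0925 after control injections (SD, n = 3 each), a change of -0.85 (SE 0.255, limma adjusted p = 0.0557), or -0.48 without replicate 3. Vcan, versican, a large hyaluronan-binding proteoglycan of provisional matrix, read 7.17, 7.07 and 9.08, against 6.60, 6.70 and 6.62. All 3 exceeded the highest of the other 18 arrays, 6.94, and the change was 1.13 (SE 0.457, limma adjusted p = 0.167), or 0.48 without replicate 3 (adjusted p = 0.511). Bgn, biglycan, had 9.76, 9.80 and 10.93, against 9.55, 9.58 and 9.69, of which only replicate 3 exceeded the other 18 arrays. Its change was 0.56 (SE 0.292), and 0.19 without replicate 3. Prelp, which anchors basement membranes to connective tissue, had a change of -0.52 (SE 0.306) and Aspn, asporin, had 0.26 (SE 0.314). Without replicate 3 these were -0.31 and 0.13.

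None of the basement membrane genes was called. The nidogens, which join laminin to collagen networks, had changes of -0.06 (SE 0.222) for Nid1 and 0.21 (SE 0.177) for Nid2. The laminin chains had -0.01 (SE 0.131) for Lamb1 and 0.22 (SE 0.149) for Lamc1, or -0.06 and 0.07 without replicate 3. Nid2 was above the controls on all 3 arrays, with 6.89, 6.99 and 7.05 against 6.75, 6.84 and 6.72. Over the 4 genes the median difference from the control mean was 0.05, 0.05 and 0.19 on replicates 1, 2 and 3. On replicate 3 the corresponding median was 1.88 for the matricellular genes, 1.65 for the lysyl oxidases, 0.86 for collagen maturation, 0.78 for elastic fibres and -0.11 for the proteoglycans.

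**Figure D2:**
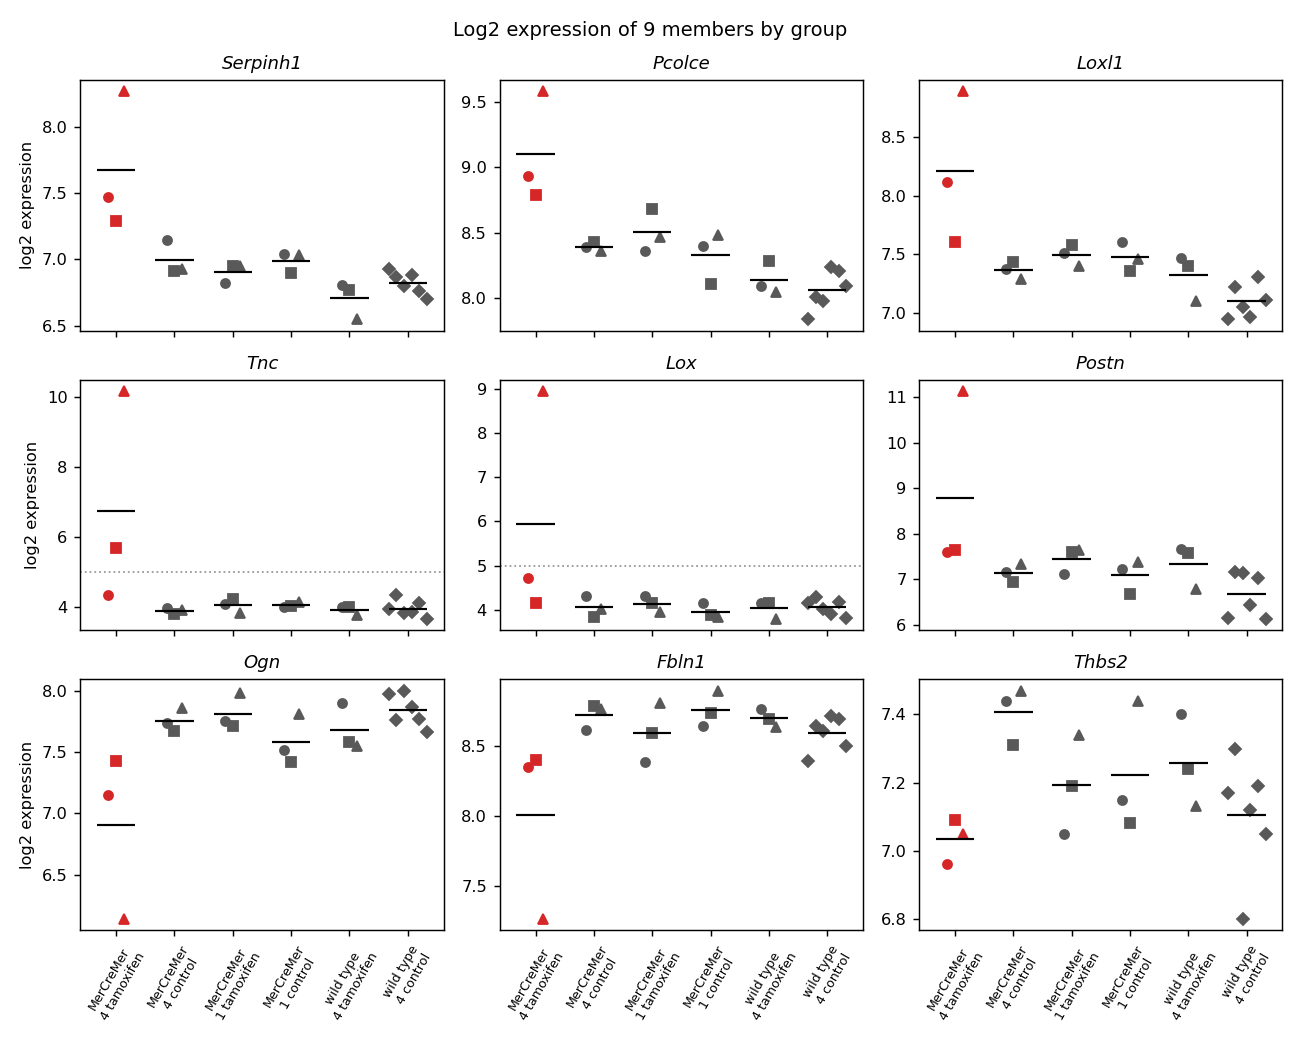
Log2 expression of 9 members on every array, with each panel on its own scale. Columns are the 6 groups, points are arrays (circle, square and triangle for replicates 1, 2 and 3, diamonds for the 6 wild-type controls), black lines are group means, red marks the MerCreMer 4 tamoxifen group and the dotted line marks the level of 5 where it falls in view. Serpinh1 and Pcolce lie above all 18 other arrays on each of the 3 tamoxifen arrays, whereas Lox exceeds 5 on replicate 3 only, at 8.96.

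Comp and Fmod followed a pattern that crossed the groups. Comp, a pentameric thrombospondin of cartilage and tendon, read 4.66, 4.98 and 4.79 in MerCreMer ventricles after 4 tamoxifen injections, against 5.53, 5.30 and 6.09 after 4 control injections. Fmod, fibromodulin, a collagen-binding proteoglycan abundant in cartilage and tendon, read 4.81, 4.48 and 4.96, against 5.45, 5.06 and 6.29. Both sets of groups were separate, but the values ranged as widely among the other 18 arrays, from 4.44 to 6.22 for Comp and from 4.22 to 6.67 for Fmod. Their changes were -0.83 (SE 0.760) and -0.85 (SE 1.00), neither called.

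Some markers of other tissue had lower values on the same arrays, while others of their lists did not. Chad, a cartilage gene, read 4.00, 4.43 and 4.81 after tamoxifen, against 5.31, 5.05 and 6.23 in controls. Myl7, the atrial myosin light chain, read 4.07, 4.72 and 5.04, against 8.60, 8.11 and 8.43, and Myl4, also atrial, 6.73, 7.29 and 7.32, against 9.45, 8.99 and 9.22. Over the 4 atrial markers the mean log2 level was 6.17 to 7.09 in the tamoxifen group and 8.04 to 8.34 in the control group, and over the 5 tendon and cartilage markers 4.70 to 4.98 and 4.70 to 5.07. The atrial marker Nppa, a natriuretic peptide gene that stressed ventricles also express, was above the controls on replicates 2 and 3, at 10.52, 11.95 and 12.59 against 10.81, 10.52 and 10.67. Scx, a tendon transcription factor, was called higher, at 7.97, 6.89 and 7.14 against 6.56, 6.62 and 6.57. Sox9, of cartilage, read 5.48, 5.58 and 6.14, against 5.34, 5.33 and 5.53. The atrial marker Sln stayed under 5 on every array, as did Tnmd and Acan. In MerCreMer mice after 1 control injection the same array was high for Comp, at 4.74, 4.87 and 6.22, and for Myl7, at 4.03, 4.05 and 8.93. In wild-type mice they parted on some arrays. Wild-type control replicate 2 read 5.84 for Comp and 5.93 for Chad, but 4.33 for Myl7. The part of atrial or cartilage-type tissue in the levels of Comp and Fmod was not tested.

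**Figure D3:**
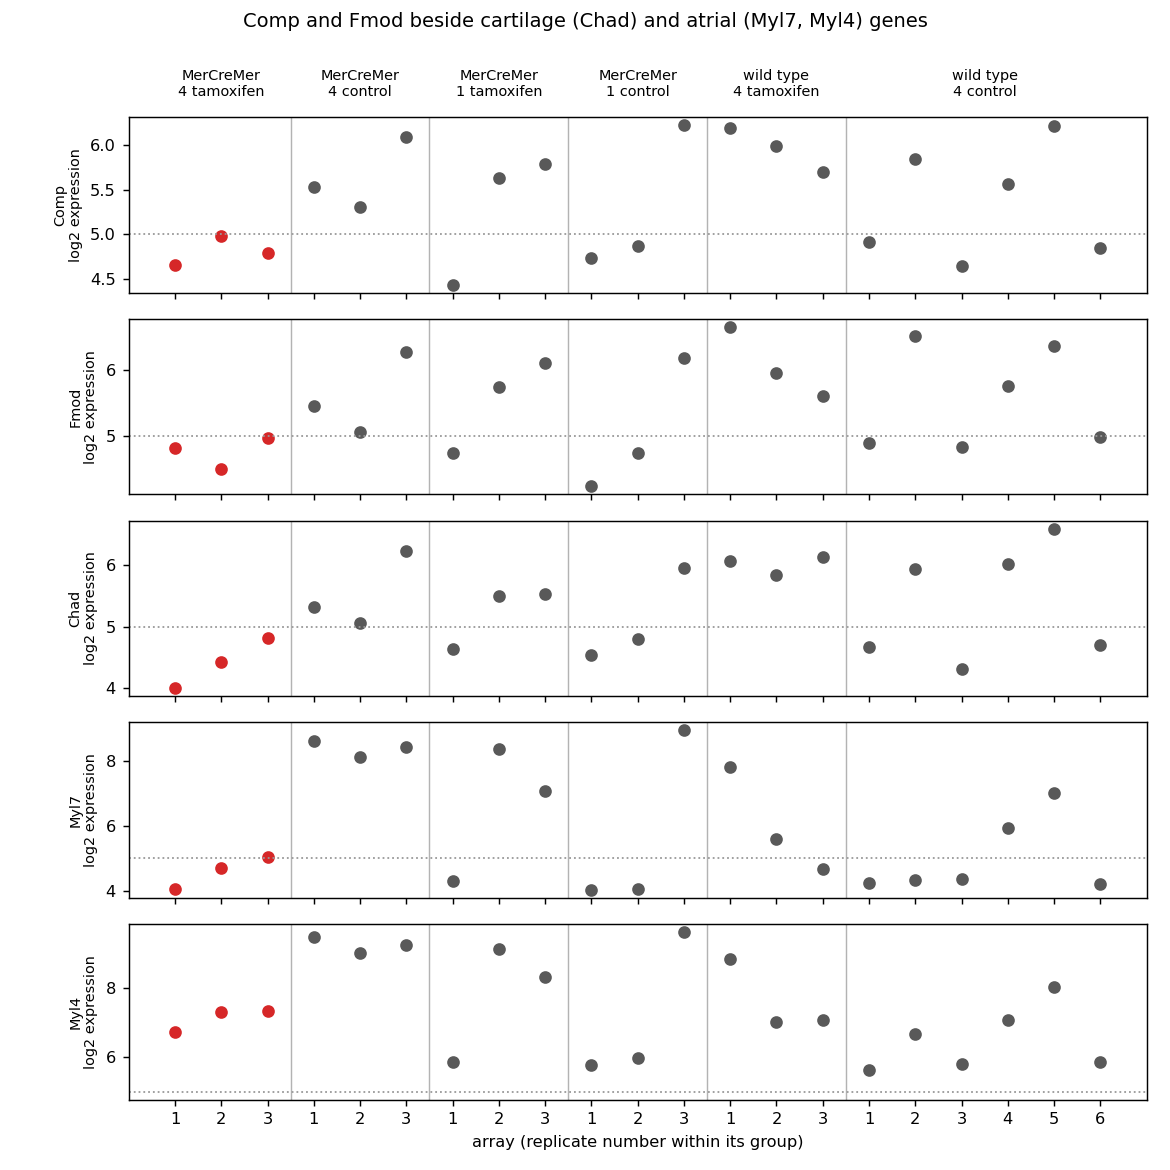
Log2 expression of Comp, Fmod, the cartilage gene Chad and the atrial genes Myl7 and Myl4 on each of the 21 arrays, grouped by treatment, with the level of 5 dotted. All 5 are low on the 3 MerCreMer 4 tamoxifen arrays (red) relative to the 3 MerCreMer 4 control arrays, and all 5 differ widely between replicates of one group elsewhere, for instance Comp at 4.74, 4.87 and 6.22 after 1 control injection.

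Markers of other cells differed between the same groups, where 3.18% of all genes tested were called higher and 2.42% lower. The macrophage list had 8 of 12 tested genes called higher and 0 lower, and its mean level was 7.21, 6.66 and 8.07 after 4 tamoxifen injections, against 6.26, 6.28 and 6.22 after 4 control injections. Cd68, a lysosomal protein of macrophages, had the change with the smallest adjusted p of that list, 1.62 (SE 0.249, limma adjusted p = 0.000713). The fibroblast list had 0 of 8 called, with a mean level of 7.62 to 7.73 after tamoxifen and 7.70 to 7.81 in controls, and its median difference was -0.04, -0.08 and 0.01 on replicates 1, 2 and 3. Of 10 cardiomyocyte genes, 2 fell, Ryr2 by 1.34 and Pln by 0.77 on the log2 scale, and the list's mean level was 11.6 to 12.02, against 12.15 to 12.18. None of the 8 endothelial, 7 smooth muscle and pericyte, 3 epicardial and 3 atrial genes tested was called, 1 of 3 tendon and cartilage genes was called higher (Scx), and the 4 neutrophil and 3 adipocyte genes lay under 5 on every array. The endothelial list had a mean level of 8.42, 8.05 and 7.79 on replicates 1, 2 and 3, against 8.27 to 8.43 in controls. That of the 8 smooth muscle and pericyte genes measured was 7.90, 7.83 and 8.53, against 7.79 to 7.94. In RNA of whole tissue, fewer cells of a type and less RNA per cell cannot be told apart. The part of these cells in the members' changes was not tested.

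Other genes of the matrix were measured alongside, in the same comparison, where 3.18% of all genes tested were called higher and 2.42% lower. Among 16 tested collagens 1 rose, Col8a1 (a short-chain collagen of vessels), by 1.46 (SE 0.381, limma adjusted p = 0.0305), with 7.17, 7.11 and 9.36 after tamoxifen against 6.68, 6.25 and 6.34. The 16 collagens had a median change of 0.27. Over all 19 collagens measured, the median difference from the control mean was 0.08, 0.06 and 0.81 on replicates 1, 2 and 3. Among 11 matrix proteases and inhibitors 1 rose, the metalloproteinase inhibitor Timp1, by 3.16 (SE 0.685, limma adjusted p = 0.0101). Among 19 matrix receptors 3 rose, the collagen receptor Ddr1 by 1.00, the fibronectin receptor subunit Itga5 by 1.04 and the hyaluronan receptor Cd44 by 1.09, with adjusted p of 0.00108, 0.0132 and 0.0363 in limma. Timp1 read 6.45, 7.63 and 11.51 after tamoxifen, against 5.31, 5.43 and 5.38, and Cd44 read 5.42, 5.44 and 7.31, against 4.81, 5.14 and 4.93, so in both replicate 3 was by far the highest. Ddr1 lay between 7.25 and 8.04, against 6.70 to 6.82, and its highest array was replicate 1. Itga5 read 7.85, 8.15 and 9.11 after tamoxifen, against 7.20, 7.57 and 7.23. Among 17 genes of TGF-β signalling, Tgfb2, a ligand, rose by 0.95 (limma adjusted p = 0.0306) and Ltbp1, which tethers latent TGF-β to the matrix, fell by 0.77 (limma adjusted p = 0.0076). Tgfb2 read 5.38, 5.52 and 7.24, against 5.11, 5.16 and 5.04, again with replicate 3 far above the others. Ltbp1 read 7.09, 7.30 and 6.70, against 7.69, 7.81 and 7.91, lower on all 3.

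After a single tamoxifen injection, MerCreMer ventricles were compared with those after a single control injection. None of the 36 tested members passed the test, and 1 of 11384 genes did (0.00878%). At an unadjusted p under 0.05 there was 1 member, Sparcl1, against 5.99% of all genes. Equal weights also called 0 members, and 0.00878% of all genes. Sparcl1, the hevin gene, read 10.50, 10.40 and 10.67 after tamoxifen, against 10.32, 10.16 and 10.38, a change of 0.24 (SE 0.0932, limma adjusted p = 0.796). Serpinh1 read 6.82, 6.95 and 6.95, against 7.04, 6.90 and 7.03, and Pcolce read 8.36, 8.68 and 8.47, against 8.40, 8.11 and 8.48. Both sets of groups overlapped. Postn read 7.12, 7.59 and 7.65, against 7.22, 6.68 and 7.38. Tnc stayed at 3.83 to 4.23 after tamoxifen and 3.99 to 4.13 after the control injection, and Lox at 3.95 to 4.30 and 3.84 to 4.14. The median change over the members was 0.09, with 25 of 36 above 0, against 0.017 and 57.4% for all genes.

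The same 4 tamoxifen injections were measured in wild-type mice, which lack the transgene. No member passed the test against wild-type controls, where 4 of 11384 genes did (0.0351%). With equal weights 0 genes passed, so the count was 0 members. Without wild-type control replicate 3 it was 1. The median change over the members was 0.14, with 30 of 36 above 0, against 0.006 and 52.8% for all genes. At an unadjusted p under 0.05, 10 members were higher, Aspn, Bgn, Fn1, Fstl1, Loxl1, Nid1, Postn, Prelp, Thbs4 and Vcan, where 4.62% of all genes were, and 0 were lower, where 3.56% were. Vcan had the lowest adjusted p, 0.391 in limma, with a change of 0.57 (SE 0.182). It read 6.89, 6.90 and 6.53 after tamoxifen, against a lowest value of 5.77, a median of 6.22 and a highest value of 6.54 in the 6 controls. Postn read 7.67, 7.57 and 6.79, against 6.13, 6.73 and 7.15 as the lowest, median and highest control, a change of 0.69 (SE 0.281). Thbs4 read 6.24, 6.20 and 5.94, against a lowest, median and highest control of 5.03, 5.60 and 6.06, a change of 0.53 (SE 0.234).

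In each of these 10 members the wild-type groups overlapped. They were separate for few genes of any kind, 1.73% of all genes tested upwards and 1.69% downwards. Tnc and Lox stayed under 5 on all 9 wild-type arrays, at 3.66 to 4.34 and 3.79 to 4.28. In these groups the mean level of the fibroblast markers was 7.66 to 7.84 after tamoxifen and 7.32 to 7.80 in controls, and that of the atrial markers 6.45 to 7.96 and 5.69 to 7.37. The part of these markers in the wild-type values was not tested. Comp read 6.19, 5.98 and 5.70 after tamoxifen in wild-type mice, and 4.65 to 6.21 in wild-type controls.

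**Figure D4:**
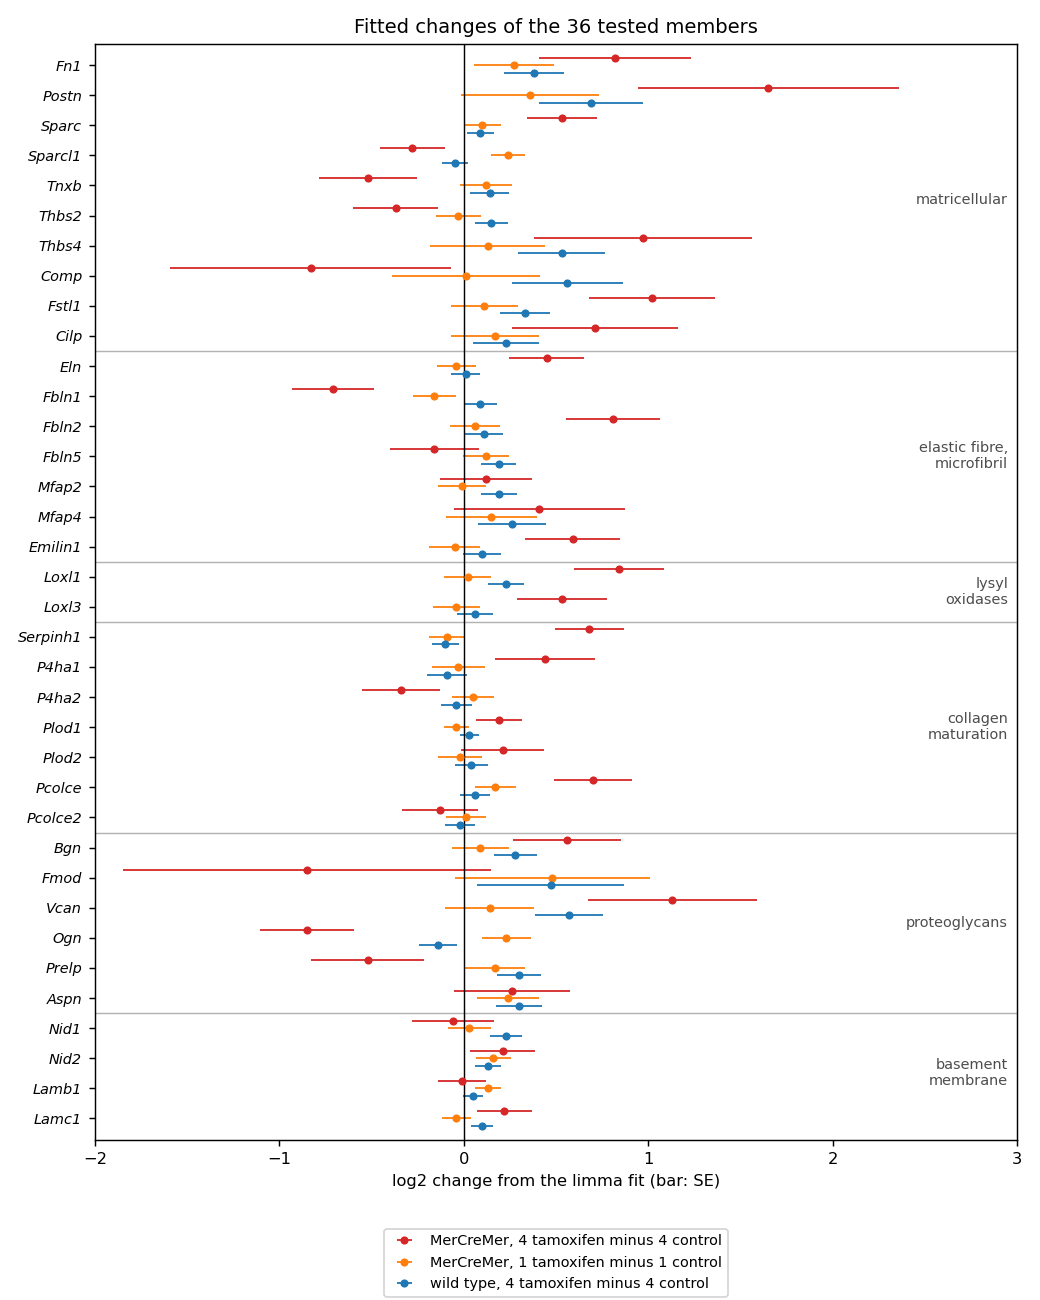
Fitted log2 changes with their SE for the 36 tested members, by role, in MerCreMer mice after 4 injections (red), MerCreMer mice after 1 injection (orange) and wild-type mice after 4 injections (blue), each tamoxifen minus control. The red bars are the widest because of the spread of that group, and of the red points only Serpinh1, at 0.68, passed the test, while no orange or blue point did.

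MerCreMer mice were also set against wild-type mice, both after 4 control injections. As the strain background is not given, the transgene and a difference in background cannot be told apart here. No member was called, where 5.42% of all genes were. Equal weights also gave 0 members, where 0.676% of all genes were called. The median over the members was 0.11, with 30 of 36 above 0, against 0.025 and 57.6% for all genes. At an unadjusted p under 0.05, Loxl1, Pcolce, Serpinh1, Thbs2 and Vcan were higher in MerCreMer mice, 5 members where 14.2% of all genes were higher, and 0 members were lower, where 8.63% were. Fstl1, Pcolce, Thbs2 and Vcan lay in MerCreMer mice above all 6 wild-type controls, 4 members where 8.49% of genes did so, and 0 lay below all 6, where 4.05% did. Pcolce came nearest to a call. It read 8.39, 8.43 and 8.36 in MerCreMer controls, against a lowest value of 7.84, a median of 8.05 and a highest value of 8.24 in wild-type controls, a difference of 0.31 (SE 0.0942, limma adjusted p = 0.0608). Thbs2 read 7.44, 7.31 and 7.47, against 6.80, 7.15 and 7.30 as the lowest, median and highest wild-type control, a difference of 0.30 (SE 0.103, limma adjusted p = 0.094). The atrial markers differed between these groups, with Myl4 at 9.45, 8.99 and 9.22 in MerCreMer mice and 5.63 to 8.03 in wild-type mice, and their part in these differences was not tested. Without wild-type control replicate 3 the count of members called was 1.

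The effect of 4 tamoxifen injections was then compared between the genotypes. One member passed, where 3.51% of all genes did. Serpinh1 had a change of 0.68 in MerCreMer mice and -0.10 in wild-type mice, a difference of 0.78 (SE 0.201, limma adjusted p = 0.0367). In wild-type mice it read 6.81, 6.77 and 6.55 after tamoxifen, against 6.70, 6.83 and 6.93 as the lowest, median and highest control. The difference was 0.47 without MerCreMer 4 tamoxifen replicate 3 (adjusted p = 0.0815), and adjusted p ran from 0.027 to 0.151 over all alternatives. Leaving out MerCreMer 4 tamoxifen replicate 1 or 2, MerCreMer 4 control replicate 2 or 3, or wild-type tamoxifen replicate 3 also ended the call, at adjusted p of 0.0728, 0.078, 0.0544, 0.0691 and 0.0578. The median difference over the members was 0.15, and -0.15 without replicate 3. The Vcan change was 1.13 in MerCreMer and 0.57 in wild-type mice, a difference of 0.57 (SE 0.492) that was not called and was -0.09 without replicate 3.

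The effect of 4 injections was compared with that of 1 injection in MerCreMer mice in the same way. One member passed here too, where 2.93% of all genes did. Ogn had a change of -0.85 after 4 injections and 0.23 after 1 injection, a difference of -1.08 (SE 0.288, limma adjusted p = 0.0487). After 1 injection it read 7.75, 7.71 and 7.98 with tamoxifen, against 7.52, 7.42 and 7.81 with the control, so the groups overlapped. The difference was -0.71 without MerCreMer 4 tamoxifen replicate 3 (adjusted p = 0.114), and adjusted p ran from 0.0272 to 0.251 over all alternatives. Of the 12 fits that left out 1 array, only those without replicate 3 of the 1 control group or replicate 1 of the 1 tamoxifen group kept the call. In all, 16 of 22 alternatives ended it, among them 1 weight per array (-0.607, adjusted p = 0.104), only the arrays compared (0.101), no sex term (0.0516), female arrays (0.251) and no filter (0.0555). Serpinh1 had 0.68 after 4 injections and -0.09 after 1, a difference of 0.77 (SE 0.211, limma adjusted p = 0.0577). The median over the members was 0.24, and -0.05 without replicate 3. These 2 differences share their MerCreMer 4 injection arrays with each other and with the first comparison.

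Sex was examined within groups over all 21 arrays, 8 from males and 13 from females. No member was called, where 0.545% of all genes were, and equal weights also gave 0, where 0.29% were called. At an unadjusted p under 0.05 there were 7 members, where 10.8% of genes were. Of these, Aspn, Eln, Fbln2, Nid1, Plod2 and Sparc were higher in males, where 5.83% of genes were. Emilin1 was lower in males, where 4.98% of genes were. Nid1 had the lowest adjusted p, 0.0635 in limma, with a difference of 0.28 (SE 0.0653). In wild-type controls, males read 8.25, 8.41 and 8.85 for Nid1, against 8.06, 8.11 and 8.15 in females, and the sexes did not overlap there. Emilin1 differed by -0.27 (SE 0.0762, limma adjusted p = 0.131), with 5.98, 6.17 and 6.06 in those males, against 6.48, 6.65 and 6.43 in the females.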

How the data were processed

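Left ventricle RNA was measured on 21 Affymetrix arrays. The authors deposited log2 values of 34760 probe sets. Per the submitters' processing notes these came from RMA, with no version named. RMA corrects background, quantile normalises and summarises probes. Array medians ran from 4.57 to 4.72, and no further scaling was applied. No scan date or batch is named in the sources used here. Precision is limited by the number of arrays.

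Probe sets were named through the platform annotation, with 1 gene for 21640, several for 1321 and none for 11799. Genes reaching a log2 value of 5 on at least 3 arrays were tested. In limma 3.58.1 (R 4.3.3), all 21 arrays were modelled by 6 group means and sex, with array weights set from each group's own variance, 14 residual and 4.66 prior degrees of freedom, and Benjamini-Hochberg adjustment over 11384 genes in each of 7 comparisons. Genes with an adjusted p under 0.05 were called. The fit was tested on simulated data. The labels name replicates without saying that each is a separate animal, so p-values concern the spread between these samples. Each group had 1 weight for all genes, and a gene's variance was pooled over the groups. The SE of a change can therefore differ from the gene's own spread in 1 group. After 4 tamoxifen injections in MerCreMer mice, Thbs2 had an SD of 0.0659 and its change an SE of 0.229. For Fn1 the SD was 1.52 and the SE 0.411.

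The 41 members and all lists, tests and weights were chosen with earlier results of these data known. Array values and fits are given for called members and a fixed panel (Fn1, Postn, Tnc, Lox, Loxl2, Sparc, Eln, Thbs4, Fstl1, Pcolce), and other members named with array values were chosen after these were seen. Genes outside the list are named from the marker lists or, up to 3 a list, from the pathway lists by smallest adjusted p. Alternatives were equal weights, 1 weight per array, only the arrays compared, no sex term, female arrays only, no filter or a filter at 6, a second quantile normalisation, the mean of a gene's probe sets, a replicate block and leaving out each array.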

Additional observations from a re-analysis of the deposited data

Results flagged for a closer look

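Wild-type control replicate 3 lay apart from the other 5 wild-type control arrays for 5 of the 39 members measured, its gap to the nearest array taking up most of the group's range (Dixon's test). It read 8.1 for Tnxb (others 7.6 to 7.78), 8.6 for Fbln2 (8.09 to 8.22), 8.06 for P4ha1 (7.43 to 7.58), 7.73 for P4ha2 (7.18 to 7.35) and 7.9 for Aspn (6.91 to 7.25). Chance marks about 1 in 20 groups in this way. The tamoxifen effect of Serpinh1 was 0.78 log2 units higher in MerCreMer than in wild-type mice, by the test of the difference itself. The effect of 4 against 1 injections on Ogn differed by -1.08 log2 units, by the same kind of test. Among members outside the tests, MerCreMer 4 tamoxifen replicate 3 read 10.18 for Tnc, 7.33 for Cthrc1 and 8.96 for Lox, above the highest of the 18 arrays of the other groups, which were 4.34, 4.31 and 4.31.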

How the results depend on the processing

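The counts of called members are small, and under other settings 95 of them stayed within 1.5 times while 46 did not. In MerCreMer mice after 4 tamoxifen against 4 control injections the count was 1 as reported, 11 with equal weights (8 higher, 3 lower), 4 with 1 weight per array, 0 with only the arrays compared, 2 without the sex term, 0 in female arrays, 5 with no filter, 2 with the mean of probe sets, 0 with the replicate block, and 0 to 1 leaving out single arrays (0 without MerCreMer 4 control replicate 3 or any MerCreMer 4 tamoxifen array). Of 11384 genes tested, 637 were called as reported, 2654 with equal weights, 1490 with 1 weight per array and 625 without the sex term. With only the arrays compared 25 of 10791 were called, in female arrays 82 of 11198 and with no filter 801 of 19937. The mean of probe sets gave 651 of 11301, the replicate block 392 of 11212, and leaving out single arrays 241 to 665. For the other comparisons such totals are not given in this section. Under the second quantile normalisation Serpinh1 had an adjusted p of 0.0541, and the 1 member called was Ogn (-0.888, adjusted p 0.032). For MerCreMer against wild-type controls the count was 2 with 1 weight per array and 1 with the stricter filter, against 0, and 0 to 1 leaving out arrays. For the tamoxifen effect between genotypes it was 3 with 1 weight per array, 0 with only the arrays compared, 0 in females and 2 with no filter, against 1, and 0 to 1 leaving out arrays. For 4 against 1 injections it was 0 with only the arrays compared, without sex, in females, with no filter and with the replicate block, against 1, and 0 to 1 leaving out arrays. With 1 weight per array the count was 1, but Ogn was not called (-0.607, adjusted p = 0.104). For sex it was 1 with 1 weight per array and 1 with the second normalisation, against 0, and 0 to 1 leaving out arrays (1 without wild-type control replicate 1 or 3 or wild-type tamoxifen replicate 2). In wild-type mice it was 0 to 1 leaving out arrays, and 0 elsewhere. After 1 injection it was 0 in all 16 alternatives. Without MerCreMer 4 tamoxifen replicate 3 the changes of Fn1 and Thbs4 turned sign, with ranges over the fits leaving out arrays of -0.055 to 1.274 and -0.088 to 1.544. The cause of these moves was not tested. The call of Serpinh1 held in 7 of 16 alternatives in MerCreMer mice and in 16 of 24 between genotypes, and that of Ogn in 6 of 22. Changes of members that were not called passed the test in 19 cases, and their size moved too, for instance to 0.123 for Fn1 and 0.047 for Thbs4 with 1 weight per array.

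Samples of the same replicate number deviated together at 0.112, -0.0366 and 0.0543 in the 4 injection groups of MerCreMer mice. In the 1 injection groups the correlations were 0.277, 0.0696 and 0.249. There each tamoxifen array correlated best with the control array of its own number, which held for replicates 1 and 3 in the 4 injection groups. The labels name no pairs and the main fit took none, while a replicate block was among the alternatives. Replicate 1 is the male in each of these groups. No replicate block was possible for comparisons with the wild-type controls, whose 6 arrays are numbered otherwise.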
